A study of Mus musculus with 38 samples.

Results

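Otx2, Fgf5, Pou3f1, Zic2, Foxd3, Sox1, Sox3, Pax6 and T are regulators that embryonic cells use when they leave naive pluripotency and take up their first lineages. These 9 genes, of 21951 protein-coding genes in the mouse annotation, were named as a group, and their binding sites were then found by position. A site belonged to a gene when at least 1 bp of it lay in the gene's body or when it came within 20 kb of the start of one of its transcripts (mm10, GENCODE M21 basic). By this rule 18 of 18942 sites in 3 lists belonged to the genes: 12 of 15081 SOX2 sites, 1 of 1726 HSF1 sites and 5 of 2135 distinct HSF2 sites.

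The study mapped SOX2 and the heat shock factors HSF1 and HSF2 by CUT&Tag, in which an antibody directs a transposase to cut and tag the DNA around a bound protein. The cells were JM8.N4, a mouse embryonic stem (ES) cell line grown in serum with leukaemia inhibitory factor, either asynchronous (A) or mitotic (M), the latter held with nocodazole at 50 ng/ml for 6 h and then collected by shake-off. SOX2, HSF1 and HSF2 were measured in unmodified cells with antibodies to the proteins themselves. The tagged proteins were over-expressed from stably integrated constructs in Hsf2 knockout JM8 cells that had been picked as a clone: full-length Halo-HSF2, read with anti-HSF2, a separate HA-tagged Halo-HSF2, read with anti-HA, and the HA-tagged DNA-binding domain, also read with anti-HA. The change between phases is given as the log2 ratio, the log2 of the signal in M over that in A. Each condition had 2 libraries, and every value here is the authors' mean of both, so no value has an error, no test across libraries could be made from these tables, and no neighbouring ranks can be called different. Whether the cells expressed the 9 genes cannot be read from binding data.

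In the embryo, OTX2 and the POU factor encoded by Pou3f1 accompany the passage from naive to formative pluripotency, and Fgf5 is a classic marker of the epiblast after implantation. SOX1 and SOX3 are the closest relatives of SOX2 and mark the neural plate, PAX6 acts in the eye and forebrain, and T (Brachyury) acts in the primitive streak and its mesoderm. SOX2 binds a short element, often beside the POU factor OCT4, whereas heat shock factors bind as trimers to inverted repeats of GAA.

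At least 1 site was found at 6 of the genes, and Fgf5, Pou3f1 and Sox3 had none. SOX2 sites lay at 5 of the 9 genes (Otx2, Zic2, Foxd3, Pax6 and T), beside 34.9% of all protein-coding genes by the same rule. HSF2 sites lay at 4 of 9 (Otx2, Zic2, Sox1 and Pax6), beside 14.3% of coding genes, and the HSF1 site lay at 1 of 9 (Sox1), beside 9.82%. For the genes with no site, the nearest SOX2 site was 184 kb from a start of Fgf5, 42.4 kb from that of Pou3f1 and 72.3 kb from that of Sox3. Sox1 had HSF1 and HSF2 sites but no SOX2 site, the nearest being 36.3 kb from its start. Foxd3 had 4 SOX2 sites and no heat shock factor site, and 2.60% of coding genes had 4 or more SOX2 sites.

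**Figure D1:**
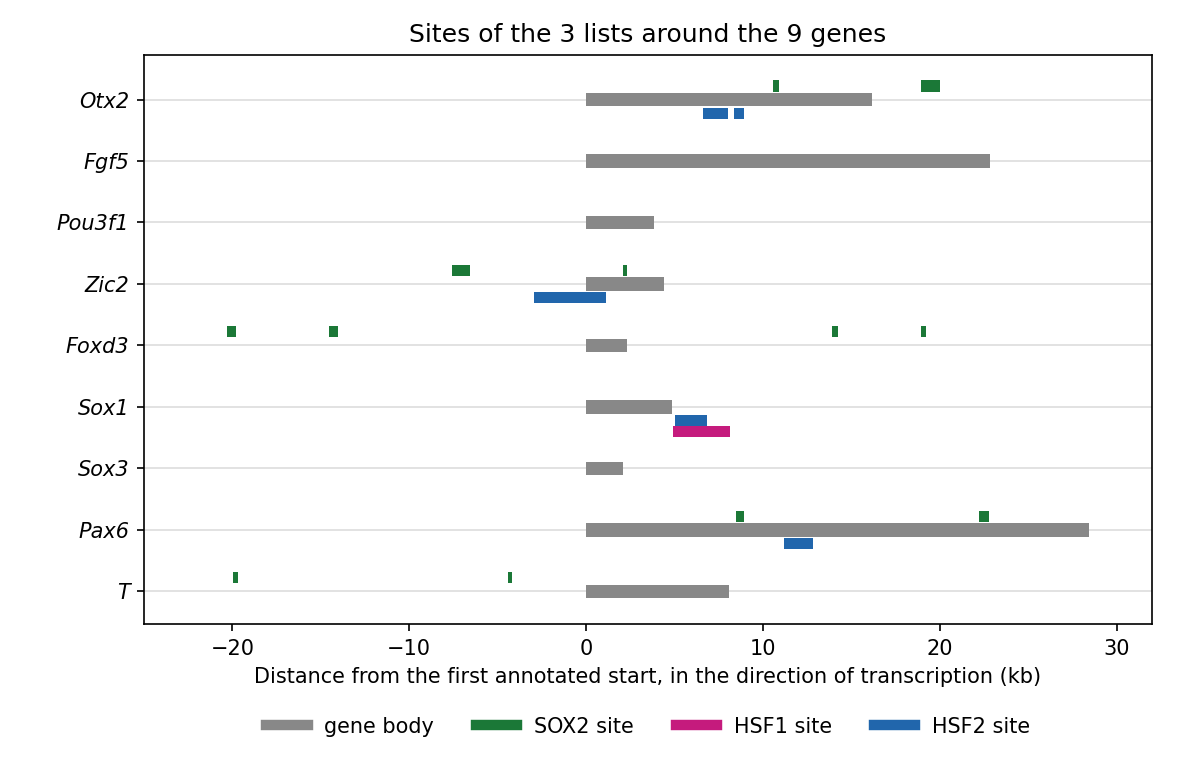
Positions of the 18 sites around the 9 genes, in kb from each gene's first annotated start along the direction of transcription (x axis); grey bars are gene bodies and coloured bars are sites, the narrowest drawn at 0.25 kb. Foxd3 has only SOX2 sites, Sox1 only HSF1 and HSF2 sites, and Fgf5, Pou3f1 and Sox3 have none.

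The DNA under the SOX2 sites is shown because it is what SOX2 reads. The element searched was CATTGT or CTTTGT on either strand, and the stretch printed for a gene lies around the copy nearest the middle of its strongest SOX2 site in A. Capitals mark the chosen copy only, with 30 bases on each side, in the orientation in which it reads CTTTGT. The stretch of Otx2 is chr14:48663047-48663112 on the minus strand, in an intron of the gene. That of Zic2 is chr14:122468426-122468491 on the plus strand, between genes, and that of Pax6 is chr2:105677538-105677603 on the plus strand, in an intron. The strongest sites of Foxd3 and T held no copy. For these genes other sites were taken, those with the highest (Foxd3) and the lowest (T) log2 ratio of the whole group, a choice made after the values were seen. The Foxd3 stretch is chr4:99670354-99670419 on the minus strand, in an exon of the antisense gene Gm12682, and the T stretch is chr17:8414581-8414646 on the plus strand, in an intron of the neighbouring gene T2. The Foxd3 stretch also holds another copy, CATTGT on the opposite strand, left in lower case.
Otx2 SOX2 site: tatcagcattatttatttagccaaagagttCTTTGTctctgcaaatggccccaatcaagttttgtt
Zic2 SOX2 site: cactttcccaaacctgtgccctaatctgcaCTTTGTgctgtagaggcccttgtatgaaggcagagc
Pax6 SOX2 site: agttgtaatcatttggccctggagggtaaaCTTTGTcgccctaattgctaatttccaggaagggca
Foxd3 SOX2 site with the highest ratio: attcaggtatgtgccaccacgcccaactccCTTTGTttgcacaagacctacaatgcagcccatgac
T SOX2 site with the lowest ratio: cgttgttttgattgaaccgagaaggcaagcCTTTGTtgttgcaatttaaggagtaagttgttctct

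The SOX element was present in 9 of the 12 SOX2 sites of the genes (75.0%), beside 57.8% of all SOX2 sites. Site width matters for such a count, since the median width was 399 bp for the sites of the genes and 224 bp for all sites. Among SOX2 sites within 10% of its width, the share with an element was 69.5% for the intronic Otx2 site, 91.0% for the upstream Zic2 site and 82.7% for the strongest Foxd3 site, which had none. The composite with a POU element (the SOX element, 1 base, then ATGC) was in 0 of the 12 sites, beside 4.13% of all SOX2 sites. A match of these letters is a description of the DNA and does not show a bound site.

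Otx2, the homeobox gene of the formative state, carried SOX2 signal that was nearly level between phases. Its intronic site at chr14:48662901-48663249, 29 bp from a transcript start, had a signal of 28.9 in A and 25.7 in M (log2 ratio of -0.17), ranking 2238 and 3698 of the list. The site past its 3′ end, chr14:48653826-48654874, had 27.0 in A and 31.7 in M (log2 ratio of 0.23; ranks 2476 and 2994). HSF2 at the same gene was far from level. The HSF2 site over a transcript start, chr14:48664888-48665455, had 15.0 in A and 0.595 in M, a log2 ratio of -4.65. Its rank went from 183 in A to 2129 in M, close to the bottom of the 2135 sites. The other HSF2 site, chr14:48665820-48667204, had 14.3 in A and 2.11 in M (log2 ratio of -2.76; ranks 198 and 2035). Both HSF2 sites overlapped untranslated exons of Otx2, and the first lay 1639 bp from the intronic SOX2 site without overlapping it.

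Zic2, a zinc finger gene used in the epiblast and in the neural plate, had lower signal in M at its larger sites for both factors. Its upstream SOX2 site, chr14:122467847-122468870, had 17.0 in A and 7.61 in M (log2 ratio of -1.16; ranks 4349 and 9073). This site lay between genes and was nearer to the start of the divergent neighbour Zic5 (2170 bp) than to that of Zic2 (6565 bp). A second SOX2 interval of 24 bp in the Zic2 intron, chr14:122477622-122477645, was listed at 0 in A and had 1.86 in M (rank 13488), so it has no ratio. The HSF2 site, chr14:122472511-122476561, covered the Zic2 start and part of its coding sequence, and an exon of the noncoding 2610035F20Rik. It had 7.36 in A and 2.19 in M (log2 ratio of -1.75; ranks 507 and 2021).

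Foxd3, a forkhead gene needed in pluripotent cells and later in neural crest, had the strongest SOX2 site of the group. That site, chr4:99636009-99636507, lay 19792 bp upstream of the start, outside any annotated gene. Its signal was 110.0 in A (rank 182) and 77.0 in M (rank 870), a log2 ratio of -0.51. The next site, chr4:99641734-99642257, had 38.1 in A and 35.4 in M (log2 ratio of -0.11; ranks 1509 and 2619). Downstream of the gene the order of phases was the opposite. The site at chr4:99670209-99670557, in an exon of Gm12682, had 20.6 in A and 54.3 in M (log2 ratio of 1.40), and its rank went from 3479 to 1500. The last site, chr4:99675234-99675507, in an intron of Gm12682, had 17.0 in A and 20.5 in M (log2 ratio of 0.27; ranks 4353 and 4582). Within 1 locus the upstream sites were thus lower in M and the downstream sites higher. After subtraction of the median of the weakest quartile of all SOX2 sites, 0.27, the last site was level.

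Sox1, the neural plate relative of SOX2, had no SOX2 site but was the only gene of the 9 with sites for both heat shock factors. The sites overlapped over 1819 bp just past its 3′ end, in an intron of the overlapping transcript Sox1ot. The HSF2 site, chr8:12400327-12402145, had 25.6 in A and 5.17 in M (log2 ratio of -2.31). Its rank in A was 65, the highest of the group's HSF2 sites, and in M it was 1263. HSF1 signal over the same DNA was weak. The HSF1 site, chr8:12400221-12403408, had 2.38 in A and 1.07 in M (log2 ratio of -1.15), ranking 1511 and 1612 of 1726. It was 1 of 1 HSF1 sites of the genes with a log2 ratio of -1 or lower, beside 17.7% of all HSF1 sites, whose median was -0.62. It was no longer at -1 or lower after centring on the weakest quartile of HSF1 sites (-0.56) or with a pseudocount of 1 (-0.71). In a second version of the HSF1 means, which accompanies the deposited site list and was examined after the data were seen, the same interval had 2.14 in A and 3.99 in M (log2 ratio of 0.90), while the median over the list was -2.41 and 92.0% of its sites, but 0 of 1 of the genes, were at -1 or lower. The direction at the HSF1 site therefore differs between the versions.

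Pax6, the paired-box gene of eye and forebrain, showed the same contrast between factors as Otx2. Its intronic SOX2 site, chr2:105677388-105677836, had 20.9 in A and 22.5 in M (log2 ratio of 0.10; ranks 3431 and 4239). A weaker SOX2 site over a coding exon, chr2:105691138-105691711, had 7.17 in A and 10.9 in M (log2 ratio of 0.60; ranks 8449 and 7457). The HSF2 site, chr2:105680090-105681749, overlapped coding and untranslated exons 2254 bp from the first of these SOX2 sites. It had 19.5 in A and 1.91 in M (log2 ratio of -3.35), and its rank went from 112 to 2061.

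T, the gene for the mesodermal T-box factor Brachyury, had the weakest SOX2 site with a ratio. The site 4197 bp upstream of its start, chr17:8430003-8430226, had 9.62 in A and 15.7 in M (log2 ratio of 0.71; ranks 7107 and 5715). The site near the limit of the window, chr17:8414428-8414726, had 1.76 in A and 0.383 in M, a log2 ratio of -2.20 between signals that ranked 12804 and 14767. The lowest SOX2 ratio of the group thus rested on signals in the bottom of the list.

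**Figure D2:**
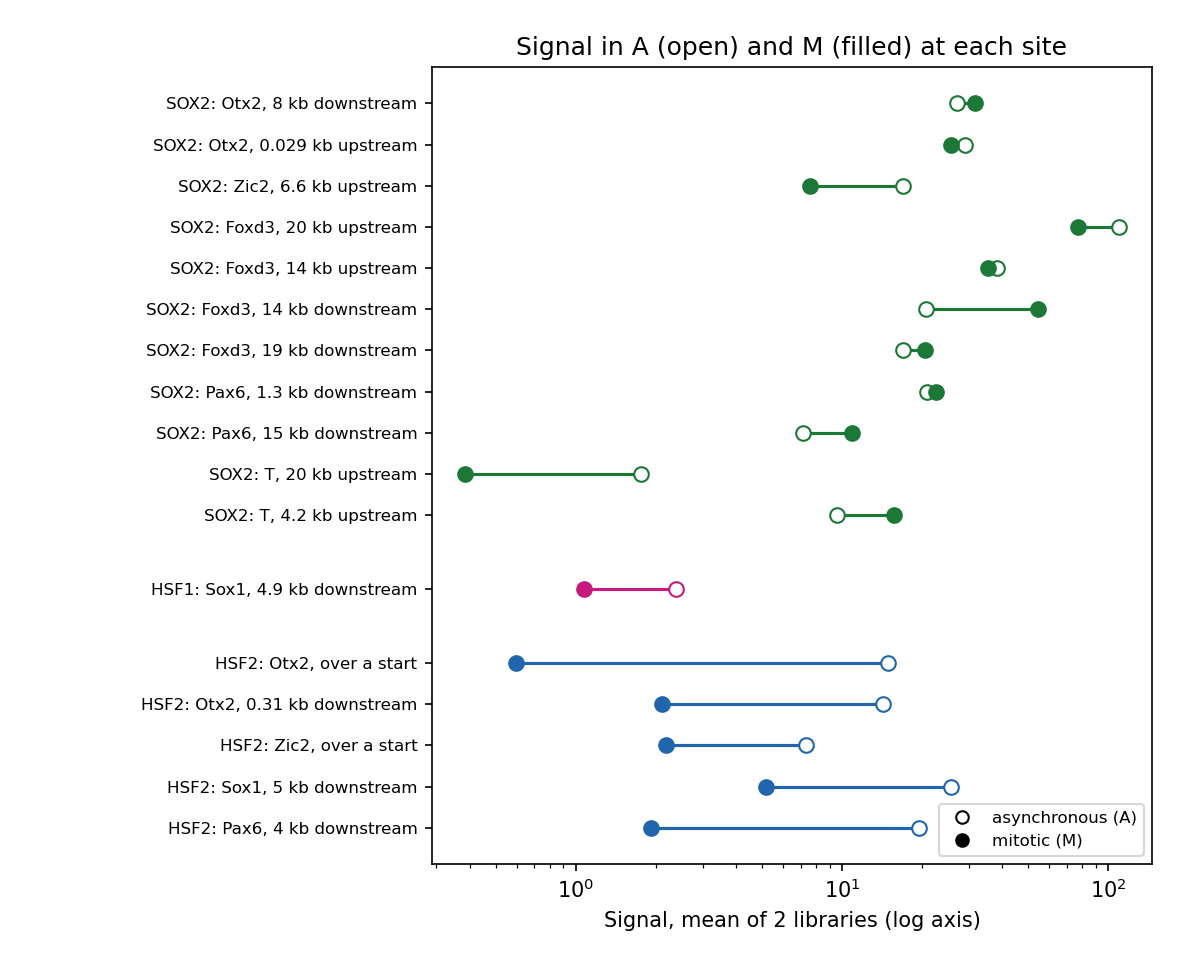
Signal in A (open circles) and M (filled circles) at the 17 sites listed above 0 in A, on a log axis, each point the authors' mean of 2 libraries without an error; the label gives the gene and the distance to its nearest start. SOX2 sites run in both directions, from -2.20 to 1.40 in log2 ratio, while all 5 HSF2 sites are lower in M.

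Over the 11 SOX2 sites with a ratio, the median log2 ratio was 0.10, and over all 14264 SOX2 sites with a ratio it was 0.34 (quartiles -0.33 and 1.06). Of the 11, 6 were higher in M (54.5%), beside 63.4% of all sites. After centring on the weakest quartile of SOX2 sites, 4 of the 11 were above 0, beside 52.7% of all sites. The centred median of the list was 0.07. The site of Foxd3 downstream of the gene was the 1 site with a log2 ratio of 1 or higher, beside 26.8% of all sites. The Zic2 and T sites were the 2 with -1 or lower, beside 10.0% of all sites. The sign of the median was not stable. It was -0.16 after centring on the weakest quartile of all SOX2 sites, whose own median was 0.27. It was -0.03 with a window of 50 kb (20 sites with a ratio) and -0.17 with 1 site per gene (5 sites). With a window of 5 kb it was 0.35, over only 4 sites. The list was also divided by signal in A, after the values were seen. From the lowest to the highest quartile in A, the medians over all sites were 1.07, 0.22, 0.14 and 0.23. The ratio shares the A value, so these medians do not show that the 0.34 of the list depends on weak sites. The lowest quartile in A is not the weakest quartile used for centring, whose median was 0.27. Of the 11 sites of the genes, 9 were in the upper 2 quartiles in A. In level the sites stood above the list, with a median signal of 18.8 in A and 21.5 in M, beside 8.74 and 10.7 over all SOX2 sites.

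All 5 HSF2 sites of the genes had a log2 ratio of -1 or lower, beside 7.26% of all HSF2 sites (155 of 2135). Their median was -2.76 and their range -4.65 to -1.75, whereas over all HSF2 sites the median was 0.49 (quartiles -0.07 and 1.14) and 72.3% were higher in M. Centred on the weakest quartile of HSF2 sites, whose median was 0.71, the list itself turned to a median of -0.21 with 40.4% of sites above 0, and the 5 sites had a median of -3.47. In A the 5 sites were strong, with a median signal of 15.0 beside 4.14 over the list. In M they were weak, with a median of 2.11 beside 5.85. The list combines sites called in A with sites called in M. A site called in A alone is therefore listed however low it is in M, which favours a low ratio. The phase in which each of the 5 sites was called was not examined. The same limit holds for the HSF2 sites of the other genes below. The second version of the HSF2 means, also examined after the data were seen, gave a median of -2.78 for the same 5 sites.

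**Figure D3:**
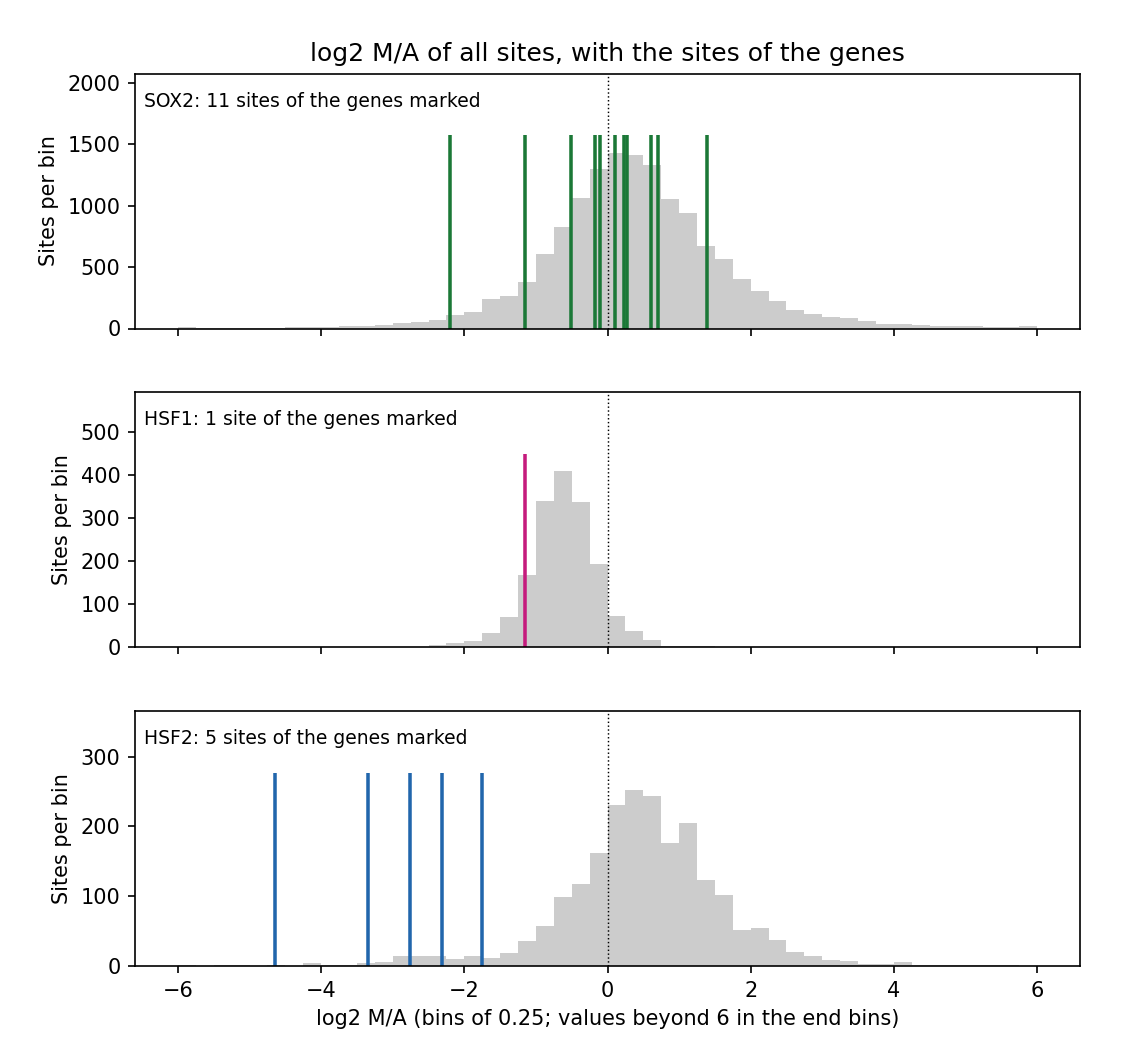
Number of sites by log2 ratio (grey bars, bins of 0.25) in each list, with the sites of the genes as coloured lines. SOX2 lines fall across the distribution, the HSF1 line lies at -1.15, and the HSF2 lines lie between -4.65 and -1.75, left of most of the list.

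A strong signal in A and a low ratio share the A value, so the HSF2 sites were also set beside the stronger sites of the list. The 5 sites were all in the quartile of HSF2 sites with the highest signal in A, whose lowest value was 7.12. In that quartile 24.9% of 534 sites had a log2 ratio of -1 or lower, and the median was -0.32. In the quartiles below it the shares were 2.81%, 0.75% and 0.56%. The quartile is wide, and 4 of the 5 sites stand high in it. Of the 214 HSF2 sites with the highest signal in A, from 13.5 upward (10% of the list), 40.2% had a log2 ratio of -1 or lower, with a median of -0.68, and all 4 sites of the genes among them did, the Zic2 site being weaker. Neither range matches the sites in strength. Both comparisons were added after the values were seen.

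At each of these 5 sites the tagged proteins in Hsf2 knockout cells gave smaller differences between phases than endogenous HSF2, in either direction. The list had been called on endogenous HSF2, and these sites are strong in its A signal. That choice favours a large endogenous difference, so whether the tagged proteins behave differently was not tested. With Halo-HSF2 and anti-HSF2, the signal in A ran from 1.14 to 2.94. The log2 ratio was -1 or lower at 1 of 5 sites, that of Sox1 (-1.66), beside 2.92% of all HSF2 sites, and above 0 at 1 of 5, beside 79.7%. With HA-tagged Halo-HSF2 and anti-HA, it was -1 or lower at 0 of 5, beside 0.843% of all HSF2 sites, and above 0 at 3 of 5, beside 86.3%. Its values ran from -0.81 to 1.60, with 1.60 at the Otx2 site over a start, 1.13 at the Sox1 site and 0.77 at the Zic2 site. These 3 ratios rest on low signals, of 0.674 in A and 2.04 in M, 0.545 and 1.19, and 0.919 and 1.57. Small changes in coverage can move them. With the DNA-binding domain the log2 ratio was -1 or lower at 0 of 5, beside 3.37%, and above 0 at 5 of 5, beside 58.6%. Its values were between 0.05 and 0.41, also on low signals, from 0.539 to 1.49 in A. Over all HSF2 sites the median log2 ratio was 0.64, 0.57 and 0.10 for these 3 measurements.

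Levels were not compared between these measurements, only places in each list. The Otx2 site over a start exceeded 91.4% of HSF2 sites in A with endogenous HSF2, but 31.0% with Halo-HSF2 and anti-HSF2, 14.3% with HA-tagged Halo-HSF2 and anti-HA and 2.58% with the DNA-binding domain. The other Otx2 site kept a high place with anti-HSF2, at 90.7%, 85.6%, 40.3% and 36.6% in the same order. The Pax6 site exceeded 94.8%, 79.8%, 59.8% and 42.7%, the Zic2 site 76.3%, 68.6%, 28.0% and 38.7%, and the Sox1 site 97.0%, 66.7%, 8.85% and 23.1%. With anti-HSF2, 4 of the 5 sites thus had a place of 66.7% or higher in A in both kinds of cells, a level taken from the values themselves. How often other sites strong with endogenous HSF2 reach it was not counted. Endogenous HSF2 and Halo-HSF2 read with anti-HSF2 differ in construct and cell line, which cannot be told apart. Halo-HSF2 read with anti-HSF2 and HA-tagged Halo-HSF2 read with anti-HA differ in antibody, construct and line, which cannot be told apart either. The proteins read with anti-HA differ in construct and line. Signal of anti-HSF2 in knockout cells without a construct was not analysed here, so how much of the signal at these 5 sites depends on HSF2 was not tested.

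**Figure D4:**
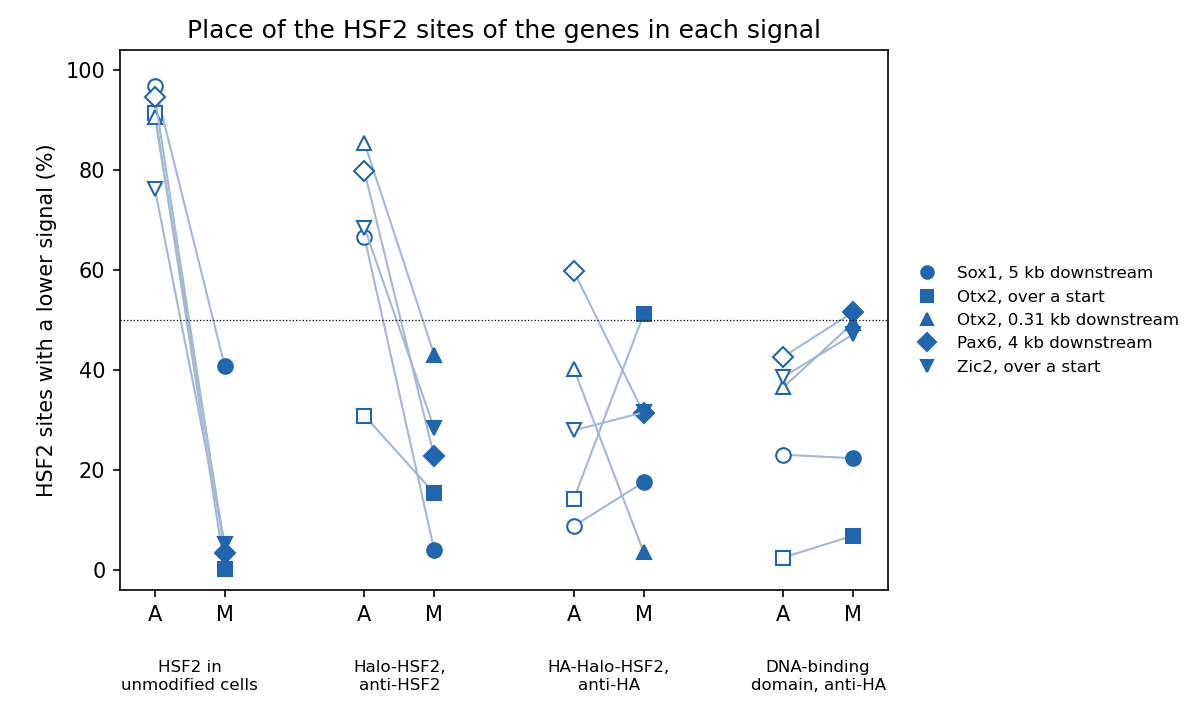
Place of the 5 HSF2 sites of the genes in each of 8 signals, as the percentage of all HSF2 sites with a lower signal (y axis), in A (open) and M (filled); lines join the phases of 1 site and the dotted line is 50%. Endogenous HSF2 in A runs from 76.3% to 97.0%, Halo-HSF2 with anti-HSF2 in A from 31.0% to 85.6%, and anti-HA measurements in A from 2.58% to 59.8%.

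The DNA under the HSF2 sites was examined for the heat shock element, 3 inverted GAA units with 2 bases between neighbours. It was in 0 of the 5 HSF2 sites, beside 14.1% of all HSF2 sites, and the HSF1 site had none either, beside 16.0% of all HSF1 sites. A pair of inverted units (GAA, any 2 bases, then TTC, or TTC, any 2 bases, then GAA) was searched after this was seen. There were 3 pairs in the Sox1 site, 1 in the Pax6 site, 1 in the Zic2 site and 0 in either Otx2 site. The pair is common at such widths, being in 59.0%, 58.2% and 88.9% of HSF2 sites within 10% of the width of the Sox1, Pax6 and Zic2 sites. The sites are printed at these pairs, in capitals, to show how near each comes to the full element. The Sox1 stretch, chr8:12400806-12400865, lies in the intron of Sox1ot and holds 2 pairs, the Pax6 stretch, chr2:105680487-105680546, lies in an intron, and the Zic2 stretch, chr14:122473447-122473506, lies in an intron of 2610035F20Rik. For Otx2, the window of 120 bases outside exons with the most CpG is given instead, chr14:48666562-48666681, with its 15 CpG in capitals. All are on the plus strand.
Sox1 HSF2 site: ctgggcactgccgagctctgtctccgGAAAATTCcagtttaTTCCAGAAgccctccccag
Pax6 HSF2 site: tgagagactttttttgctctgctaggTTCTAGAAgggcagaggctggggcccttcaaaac
Zic2 HSF2 site: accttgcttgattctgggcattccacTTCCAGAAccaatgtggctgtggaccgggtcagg
Otx2 HSF2 site: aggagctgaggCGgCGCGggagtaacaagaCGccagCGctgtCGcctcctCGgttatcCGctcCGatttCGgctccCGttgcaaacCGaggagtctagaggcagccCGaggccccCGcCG

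The base composition of these sites lay within the range of the list. They had between 34.3 and 69.6 CpG per kb, with a median of 54.6, beside a median of 44.1 over all HSF2 sites. Their median GC content was 57.3%, beside 55.1%. Across the list, the 155 sites with a log2 ratio of -1 or lower had a median of 43.3 CpG per kb, and the other 1980 sites 44.3.

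Other early regulators were taken from 4 lists. Of 10 further formative genes, 9 had SOX2 sites, 27 in all, with a median log2 ratio of 0.11 over the 25 with a ratio. Of 15 neural genes 10 had SOX2 sites (12 sites, median 0.06), and of 17 mesendoderm genes 7 did (11 sites, median -0.15). All 11 core pluripotency genes had SOX2 sites, 33 in all, with a median of -0.14. By the same rule 34.9% of all protein-coding genes had a SOX2 site, and the median over all SOX2 sites was 0.34.

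Single SOX2 sites in these lists moved in both directions. Among sites at or above the median strength of the list, that of Etv4, an ETS gene downstream of FGF signalling, was highest of the formative genes, with 27.5 in A and 101.0 in M (log2 ratio of 1.88). The lowest was the interval shared by Zic5 and Zic2. Of the neural genes, Rax, a homeobox gene of the eye field, was highest (82.2 in A and 173.9 in M, log2 ratio of 1.08) and Hes5, a Notch target, lowest (19.5 and 11.5, -0.77). Of the mesendoderm genes the extremes were the Nodal antagonists Lefty1 (59.0 and 70.6, 0.26) and Lefty2 (16.9 and 8.18, -1.05). Of the core genes, Pou5f1, which encodes OCT4, was highest (25.6 and 71.7, 1.49) and Sox2 itself lowest (19.8 and 13.5, -0.56). That Pou5f1 site is chr17:35490399-35490772. The stronger Pou5f1 site, chr17:35502524-35505322, was slightly lower in M, with 52.5 in A and 44.7 in M (log2 ratio of -0.23).

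The HSF2 sites of the neural list were all lower in M, like those of the 9 genes. Its 4 sites, at Sox21, Zic1, Otx1 and Six3, had log2 ratios of -2.03, -1.94, -2.72 and -3.38, so that 4 of 4 were at -1 or lower, beside 7.26% of all HSF2 sites. Of the mesendoderm list it was 2 of 4, with Eomes at -1.94, Sox17 at -2.47, Nodal at -0.46 and Lhx1 at 0.35. All 4 neural and all 4 mesendoderm sites were in the quartile with the highest signal in A, where the share was 24.9%. Among the 214 strongest sites, where it was 40.2%, 3 of 3 neural and 2 of 2 mesendoderm sites were at -1 or lower. The formative list had 1 of 3, the interval shared by Zic5 and Zic2, with Etv4 at 0.72 and Utf1 at 0.08. The core pluripotency list had 2 of 6, both at Tbx3 (-2.87 and -1.68), while Pou5f1 had -0.65, Klf2 -0.41 and -0.22, and Klf4 1.82. These lists were weaker in A, with 2 of 3 formative and 2 of 6 core sites in the quartile with the highest signal. Within that quartile 1 of 2 was at -1 or lower in each list. The 214 strongest sites held 0 formative sites and 1 core site, which was at -1 or lower. Of HSF1 sites, 2 of 9 in the core list were at -1 or lower, near the 17.7% of all HSF1 sites, and 0 of 3, 0 of 1 and 0 of 2 in the formative, neural and mesendoderm lists. These HSF1 counts hold for the table of signal only, since in the second version of the means they were 8 of 9, 3 of 3, 0 of 1 and 2 of 2, beside 92.0% of the list.

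Relatives of the 9 genes were then counted by family, a grouping added after the values were seen and overlapping the lists above. The 123 other genes of the Otx, Zic, Sox, Pax, Fox, Pou, T-box and Fgf families had 37 HSF2 sites besides those of the 9 genes. Of these, 17 of 37 had a log2 ratio of -1 or lower, against the 7.26% of all HSF2 sites. By family it was 5 of 5 T-box sites (at Eomes, Tbr1, Tbx2 and Tbx3), 3 of 3 Pax sites (at Pax2 and Pax9), 1 of 1 Otx sites (Otx1, -2.72), 1 of 1 Zic sites (-1.94), 3 of 6 Sox sites, 4 of 13 Fox sites, 0 of 5 Fgf sites and 0 of 3 Pou sites, counts too small to set the families apart and with no test between them. Their strength in A was also unequal, with 4 of 5 T-box, 3 of 3 Pax, 1 of 1 Otx, 1 of 1 Zic, 2 of 6 Sox, 4 of 13 Fox, 2 of 5 Fgf and 1 of 3 Pou sites in the quartile with the highest signal. The lowest was a Pax2 site with 14.8 in A and 0.557 in M (log2 ratio of -4.73), ranking 186 and 2130, beside 183 and 2129 for the Otx2 site over a start. Of the 18 family sites in the quartile with the highest signal in A, 15 were at -1 or lower, beside 24.9% of that quartile, and of the 13 among the 214 strongest sites all were, beside 40.2% of those sites. For SOX2 the same families had a median log2 ratio of 0.21 over 101 sites, and for HSF1 -0.56 over 24 sites.

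**Figure D5:**
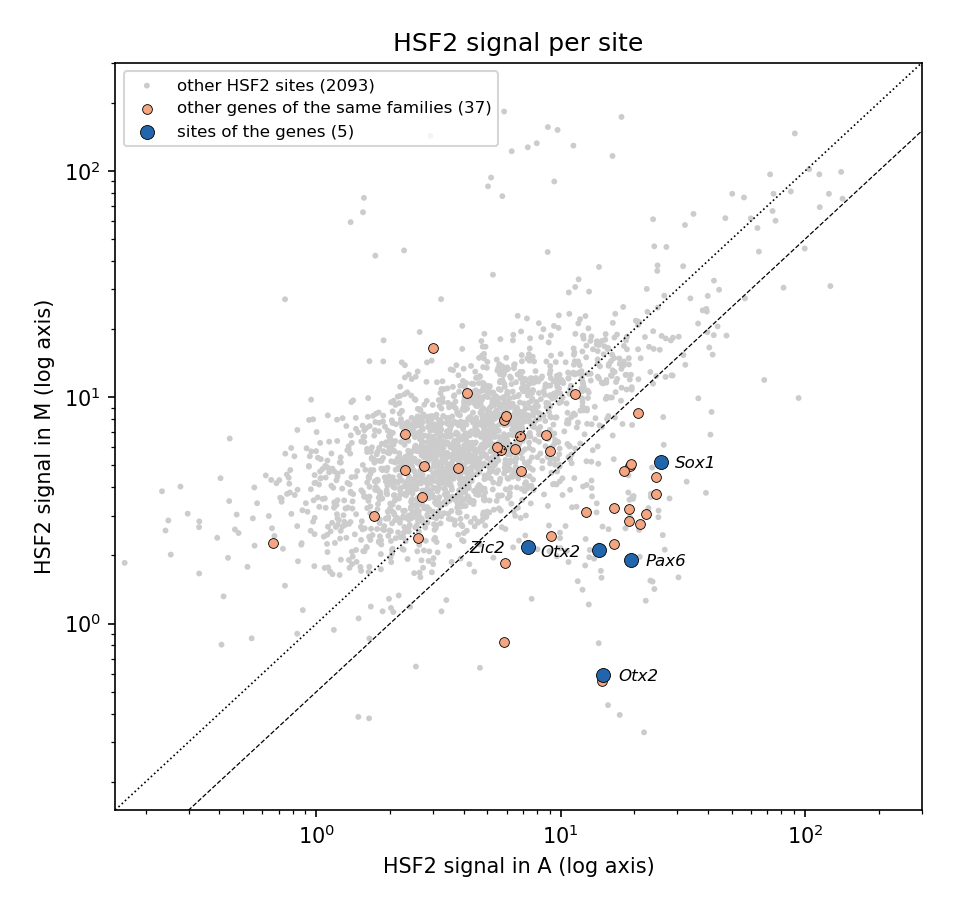
HSF2 signal in A (x axis) and M (y axis) at each of 2135 sites, both log axes, with the 5 sites of the genes in blue and the 37 sites of other genes of their families in orange; the dotted line marks equal signal and the dashed line a log2 ratio of -1. The 5 sites lie below the dashed line with 17 of the 37 family sites.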

How the data were processed

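CUT&Tag reads had been aligned by the authors with Bowtie2 to mm10, with spike-in reads to the fly genome dm6. The deposited values are signal: coverage scaled by the authors to fly reads, averaged over both libraries of a condition and over each interval. SOX2 sites came from earlier literature, and HSF sites were called by the authors in A and M against IgG and combined. Of 38 libraries in 19 conditions, the 24 libraries of 12 conditions with values per site were used; IgG, the anti-HA control, Hsf2 knockout cells and mixtures with wild-type cells were not analysed here. The tables of signal hold no counts or depth and no value per library, so no test across libraries was made.

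Sites were joined to genes with Python 3.11.15, pandas 2.3.3 and numpy 2.4.6, and sequence was read from GRCm38 with pyfaidx 0.9.0.4. Repeated intervals counted once (2141 HSF2 rows became 2135). The log2 of M over A had no pseudocount and needed both signals above 0. Steps were tested on simulated data. All 9 genes were named with every site; in each other list the SOX2 sites with the highest and lowest ratio were named, among sites at or above the median of all. Members and lists were chosen with earlier results of these data known. Alternatives changed the window, pseudocount, minimum signal, centring and element.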

Additional observations from a re-analysis of the deposited data

How the results depend on the processing

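No paired analysis was made, because the tables of signal used here hold means over the libraries of a condition. The number of sites of the genes went from 18 to 10 with a window of 5 kb, and to 27 with a window of 50 kb, since the window sets how many intervals are reached. The SOX2 median log2 ratio turned negative after centring on the weakest quartile (-0.16), with a window of 50 kb (-0.034) and with the strongest site of each gene (-0.17); the cause was not tested. It was 0.16 with a pseudocount of 0.1 or of 1, 0.35 with a window of 5 kb, and 0.17 with sites nearest to a start of the genes, an alternative chosen after seeing the data. The HSF1 value of -1.15 became 0.90 in the second version of the means, also chosen after seeing the data; the cause was not tested. It was -1.08 and -0.71 with pseudocounts of 0.1 and 1, and -0.56 after centring, so that with a pseudocount of 1 or after centring the site was no longer at -1 or lower. The HSF2 median of -2.76 stayed negative in every alternative run: -2.71 and -2.30 with pseudocounts of 0.1 and 1, -3.47 after centring, -3.06 with a window of 5 kb and -2.78 in the second version of the means. The share of SOX2 sites with the SOX element was 75.0% and became 41.7% with the element extended to CATTGTT or CTTTGTT, beside 30.5% of all SOX2 sites. With 1 to 12 sites per list, medians rest on few values, and signals near 0, such as those of T and of the short Zic2 interval, give ratios that small changes in coverage can move.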
